A study of Mus musculus with 18 samples.

Results

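The levels of 7 genes that load, clear and recycle the transmitter glutamate were examined in the spinal dorsal horn (DHSC) of mice, on the side of the injected paw, after formalin-evoked pain. They are the vesicular glutamate transporters *Slc17a6* (VGLUT2), *Slc17a7* (VGLUT1) and *Slc17a8* (VGLUT3), the plasma membrane glutamate transporters *Slc1a2* (GLT1), *Slc1a3* (GLAST) and *Slc1a1* (EAAC1), and *Glul*, the gene of glutamine synthetase. The rule that picks them uses gene symbols and no measured value. All 7 were found among the 55573 genes of the count table, and all 7 passed the filter on low counts in each of the 3 comparisons described here.

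Glutamate is the main excitatory transmitter of the dorsal horn, where it is released by the central endings of sensory neurons and by local excitatory neurons. Vesicular transporters use a proton gradient to fill synaptic vesicles with it. After release, sodium-driven transporters on astrocytes and neurons remove it from the synaptic cleft, and in astrocytes glutamine synthetase turns it into glutamine, which returns to neurons as the precursor of new glutamate.

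RNA-sequencing was performed on DHSC of adult C57BL/6J mice, dissected from lumbar segments 2 h after 2% formalin was injected into the hindpaw. There were 6 females in proestrus, which had shown a short pause between the phases of nocifensive behavior (F1/proestrus), 6 females in metestrus with a long pause (F2/metestrus) and 6 males. Each group received formalin of the same concentration, in a volume that the study scaled to body weight. Samples from untreated animals were not analysed here, so the values are levels after formalin and not responses to it. The estrus stage was read from vaginal smears, and nothing in the sources used here says that samples were pooled or which samples shared a litter or a day, so p-values measure the spread between these samples.

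Between 73590509 and 125724156 reads were counted per sample, and a level of 3 counts corresponded to 0.0240 to 0.0407 counts per 1000000 (CPM, scaled by the TMM method). The library numbers of the samples form 2 series, 27 to 35 and 188 to 196, which hold replicates 1 to 3 and replicates 4 to 6 of each group. What the series stand for is not given in the sources used here. Marker genes of cell types were read as well. The summed level of 4 neuronal genes ranged from 3632 to 4540 CPM over the 18 samples, and that of 6 astrocyte genes from 3211 to 4106 CPM. No gene of the 12 marker lists was at 0 in all samples. At this depth, and with genes of peripheral and blood cells among the lists, that is no check of tissue identity. The sample F1/proestrus 5 stood apart, with 492 CPM summed over 9 genes of sensory ganglion neurons against 17.7 to 28.6 CPM in the other 17 samples. The spread and the main log2 fold changes of *Slc17a7* are given with and without this sample. Values split by library series, values under most other settings and the genes most alike to *Slc17a7* are given with it only.

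Per kilobase of exon, the order of the levels was *Glul*, *Slc17a6*, *Slc1a2*, *Slc1a3*, *Slc1a1*, *Slc17a7* and *Slc17a8*, from a median of 68.9 CPM per kb for *Glul* to 0.0999 CPM per kb for *Slc17a8*. Expressed in this way, the dorsal horn contained much more *Slc17a6* RNA (median 48.1 CPM per kb) than *Slc17a7* RNA (0.158 CPM per kb). Transporter protein, also that in the endings of sensory neurons, was not measured here. Among the plasma membrane transporters the median was 29.5 CPM per kb for *Slc1a2*, 16.3 for *Slc1a3* and 13.5 for *Slc1a1*. *Glul* was above *Slc17a6* in 18 of 18 samples, *Slc17a6* above *Slc1a2* in 18 and *Slc1a2* above *Slc1a3* in 18, and the ranges of these neighbours did not overlap. The ranges of *Slc1a3* (14.1 to 17.96 CPM per kb) and *Slc1a1* (11.4 to 14.1) overlapped, although *Slc1a3* was the higher in 18 of 18 samples. *Slc17a7* was above *Slc17a8* in 15 of 18 samples, and their ranges overlapped as well. With the longest transcript as the length in place of the union of exons, *Slc1a2*, *Slc1a3* and *Slc1a1* could no longer be told apart by their ranges, with medians of 33.4, 31.4 and 29.4 CPM per kb.

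**Figure D1:**
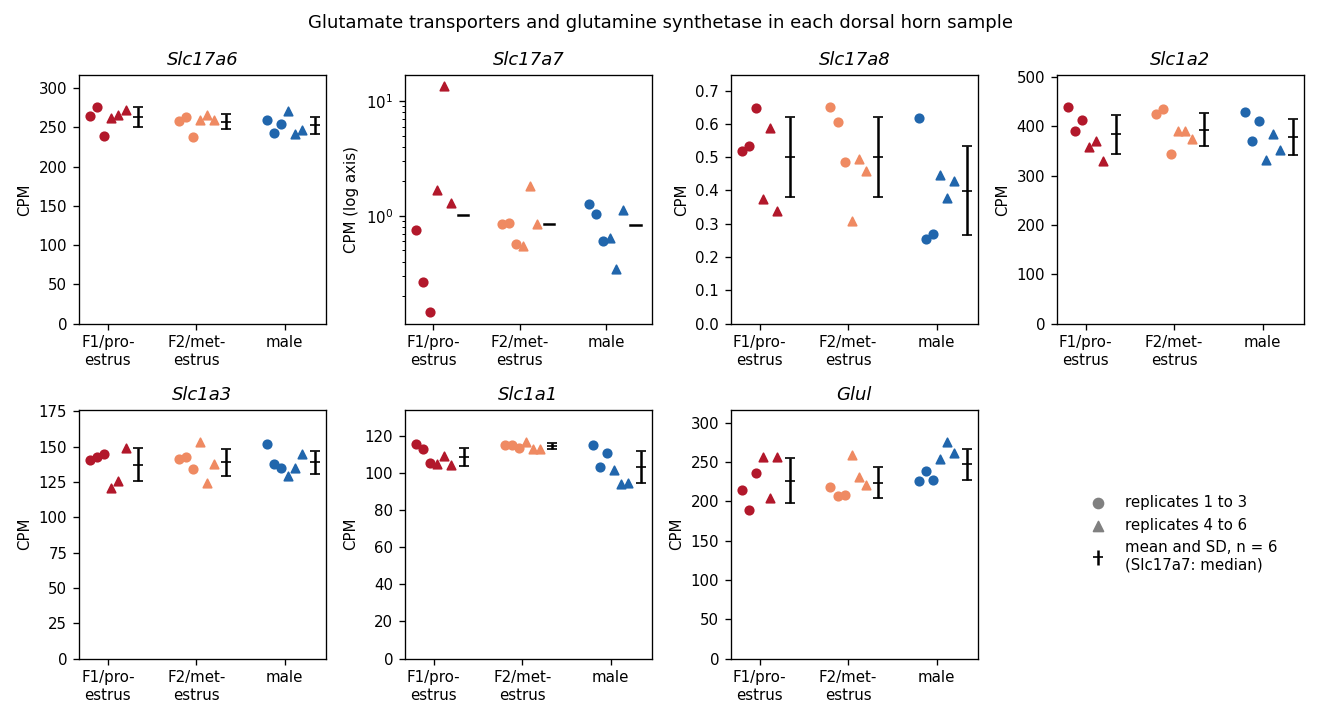
Level of each member in each of the 18 samples, in CPM, by group (6 samples each), with circles for replicates 1 to 3 and triangles for replicates 4 to 6; the *Slc17a7* axis is logarithmic. Bars beside the points give the mean and SD of the 6 samples, and for *Slc17a7* a dash gives the median. The groups overlap for all 7 members. Among all genes tested, 0.108% did not overlap between the female groups and 0.125% between the sexes. F1/proestrus 5, at 13.6 CPM, lies above all other samples for *Slc17a7*.

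*Slc17a6*, on chromosome 7 (51622006 to 51671119, plus strand, 5399 exonic bases in GRCm38), is the vesicular transporter of most excitatory neurons of the spinal cord. In F1/proestrus it ranged from 239 to 276 CPM with a median of 266, in F2/metestrus from 238 to 266 with a median of 259, and in males from 241 to 271 with a median of 250.2. It was the steadiest member over the 18 samples, with a coefficient of variation of 4.55%. It made up a median of 99.5% of the RNA of the 3 vesicular transporters per kilobase of exon. Its share was 99.1% to 99.7% in all samples but F1/proestrus 5, where it was 94.9%. 

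*Slc17a7*, on chromosome 7 (45163949 to 45176142, plus strand, 5392 exonic bases), encodes the vesicular transporter found in large-diameter sensory neurons and in many cortical neurons. It was near 1 CPM in most samples and varied more than any other member. The 6 F1/proestrus samples had 0.746, 0.267, 0.144, 1.68, 13.6 and 1.30 CPM in the order of replicates 1 to 6. In F2/metestrus it ranged from 0.550 to 1.84 CPM with a median of 0.851, and in males from 0.345 to 1.27 with a median of 0.839. The 13.6 CPM of F1/proestrus 5 rest on 1548 counts, against 14 to 158 counts in the other samples. With this sample the coefficient of variation was 193%, and without it 54.4%.

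In the same sample, all 9 sensory ganglion neuron markers were at their highest. *Scn10a*, a sodium channel of nociceptors, had 125 CPM there and at most 0.153 CPM elsewhere, *Avil* 132 CPM against at most 0.902 CPM, and *Mrgprd* 32.9 CPM against at most 0.0445 CPM. *Scn10a* had no count in 5 other samples and *Mrgprd* none in 10. The other vesicular transporters did not stand out there, since *Slc17a6* (266 CPM) and *Slc17a8* (0.586 CPM) lay within the range of the other samples. The part of ganglion RNA in the *Slc17a7* value was not tested.

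**Figure D2:**
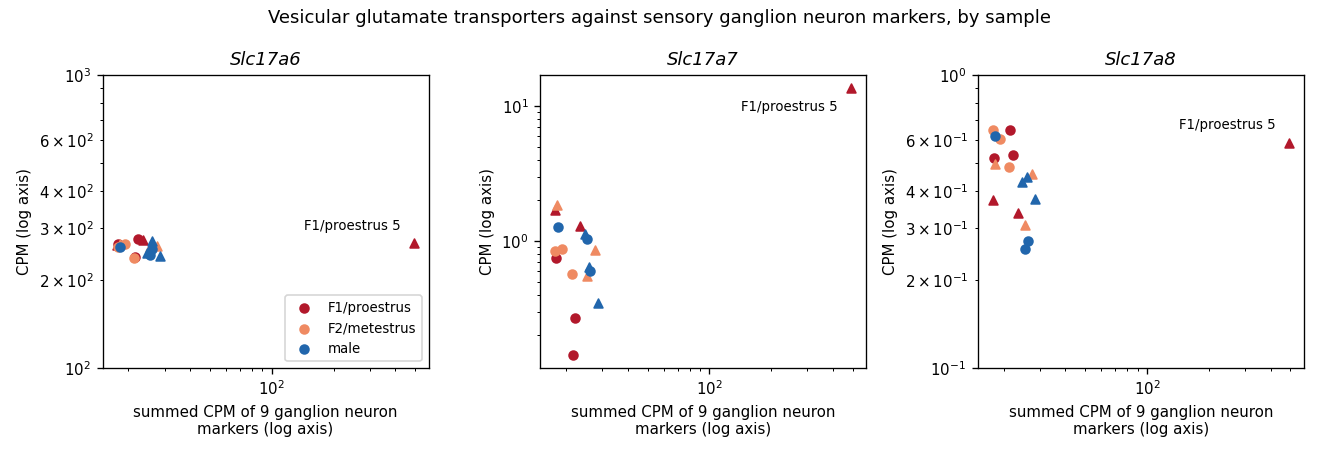
Level of *Slc17a6*, *Slc17a7* and *Slc17a8* in CPM (y axis) against the summed CPM of 9 sensory ganglion neuron markers (x axis), 1 point per sample, both axes logarithmic, with circles for replicates 1 to 3 and triangles for replicates 4 to 6. F1/proestrus 5, at 492 CPM of markers, is high for *Slc17a7* and within the range of the other 17 samples for *Slc17a6* and *Slc17a8*.

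*Slc17a8*, on chromosome 10 (89574020 to 89621253, minus strand, 4720 exonic bases), encodes the third vesicular transporter, which a small set of sensory neurons and of dorsal horn neurons use. It had 28 to 77 counts per sample and was the lowest member per kilobase. F1/proestrus samples ranged from 0.339 to 0.648 CPM with a median of 0.526, F2/metestrus samples from 0.308 to 0.650 with a median of 0.490, and males from 0.254 to 0.617 with a median of 0.404. Its coefficient of variation over the 18 samples was 27.3%, and the groups overlapped.

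*Slc1a2* lies on chromosome 2 (102658659 to 102790784, plus strand, 13133 exonic bases) and encodes the astrocytic transporter that carries most glutamate uptake. Its level ranged from 331 to 439 CPM in F1/proestrus (median 381), from 345 to 435 in F2/metestrus (median 391) and from 331 to 429 in males (median 377). The 3 groups covered nearly the same range. Since the tissue was sequenced in bulk, fewer cells of a type and less RNA per cell cannot be told apart in these levels. *Slc1a3*, the second astrocytic transporter, lies on chromosome 15 (8634124 to 8710764, minus strand, 8537 exonic bases). It ranged from 120.4 to 149 CPM in F1/proestrus (median 142), from 124 to 153 in F2/metestrus (median 139.6) and from 129 to 152 in males (median 137).

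*Slc1a1*, on chromosome 19 (28835049 to 28913960, plus strand, 8257 exonic bases), encodes a transporter of neurons that also takes up cysteine. F1/proestrus samples had 104 to 116 CPM (median 107), F2/metestrus samples 113 to 117 (median 114) and males 94.1 to 115 (median 102). The F2/metestrus samples lay close together, with a coefficient of variation of 1.40% against 4.39% in F1/proestrus and 8.19% in males. The 2 lowest values were those of males 5 and 6, at 94.1 and 94.7 CPM.

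*Glul*, on chromosome 1 (153899944 to 153909723, plus strand, 3323 exonic bases), ranged from 189 to 257 CPM in F1/proestrus (median 225), from 206 to 259 in F2/metestrus (median 219) and from 226 to 275 in males (median 246). The sexes overlapped, and males 5 (275 CPM) and 6 (261 CPM) lay above the highest female sample. Relative to *Slc1a2* per kilobase, *Glul* was 1.87 to 3.07 times as high over the 18 samples, with medians of 2.22 in F1/proestrus, 2.33 in F2/metestrus and 2.69 in males.

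The plasma membrane transporters kept nearly the same proportions in each group. *Slc1a2* made up a mean of 49.9% ± 2.34 (SD, n = 6) of the 3 per kilobase in F1/proestrus, 49.8% ± 2.02 in F2/metestrus and 50.0% ± 1.66 in males. *Slc1a3* took 27.5% ± 2.17, 27.1% ± 1.47 and 28.3% ± 1.52, and *Slc1a1* took 22.5% ± 1.02, 23.1% ± 1.003 and 21.7% ± 1.12 in the same order. These differences between groups were at or below the SD within a group, except for *Slc1a1* between F2/metestrus and males. No test was run on the shares.

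To ask whether the estrus stage and the form of the pain behavior went with the RNA level of the members, F2/metestrus females were compared with F1/proestrus females. None of the members was called: 0 of 7 passed the 5% FDR of the edgeR quasi-likelihood fit, and 0 of 7 had an unadjusted p under 0.05. Among all 24042 genes tested, 0% passed the FDR and 2.48% had an unadjusted p under 0.05. DESeq2 and limma voom also called 0 of 7 members. After adjustment p was 0.99998 for each of the 7 members.

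The intervals show which differences the data leave possible. *Slc17a6* differed by -0.035 on the log2 scale (95% interval -0.14 to 0.065), which is a ratio of 0.976 (0.911 to 1.05). For *Slc1a2* the log2 fold change was 0.034 (-0.12 to 0.19), for *Slc1a3* 0.016 (-0.12 to 0.15) and for *Glul* -0.017 (-0.19 to 0.15). *Slc1a1* was at 0.072 (-0.019 to 0.16), and F1/proestrus 1, at 116 CPM, lay within the narrow range of the F2/metestrus samples. For these 5 members the lowest bound of the ratio was 0.879, for *Glul*, and the highest was 1.14, for *Slc1a2*.

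*Slc17a8* differed by -0.0010 (-0.46 to 0.46), an interval that spans ratios from 0.728 to 1.37. *Slc17a7* was 1.69 lower in F2/metestrus on the log2 scale, with an interval from -3.47 to 0.085. Without F1/proestrus 5 the log2 fold change of *Slc17a7* was 0.16 (adjusted p = 0.9999), so the direction rested on that sample. Within replicates 1 to 3 alone it was 0.97, and within replicates 4 to 6 alone -2.36. Replicates 4 to 6 hold F1/proestrus 5, and they were not fitted without it. An edgeR interaction term for the difference between these within-series values had an adjusted p = 0.9997 (unadjusted p = 0.0111). Of 25332 genes tested for this term, 2 passed the FDR. The other 6 members differed between the female groups by -0.049 to 0.036 within replicates 1 to 3 and by -0.051 to 0.12 within replicates 4 to 6.

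**Figure D3:**
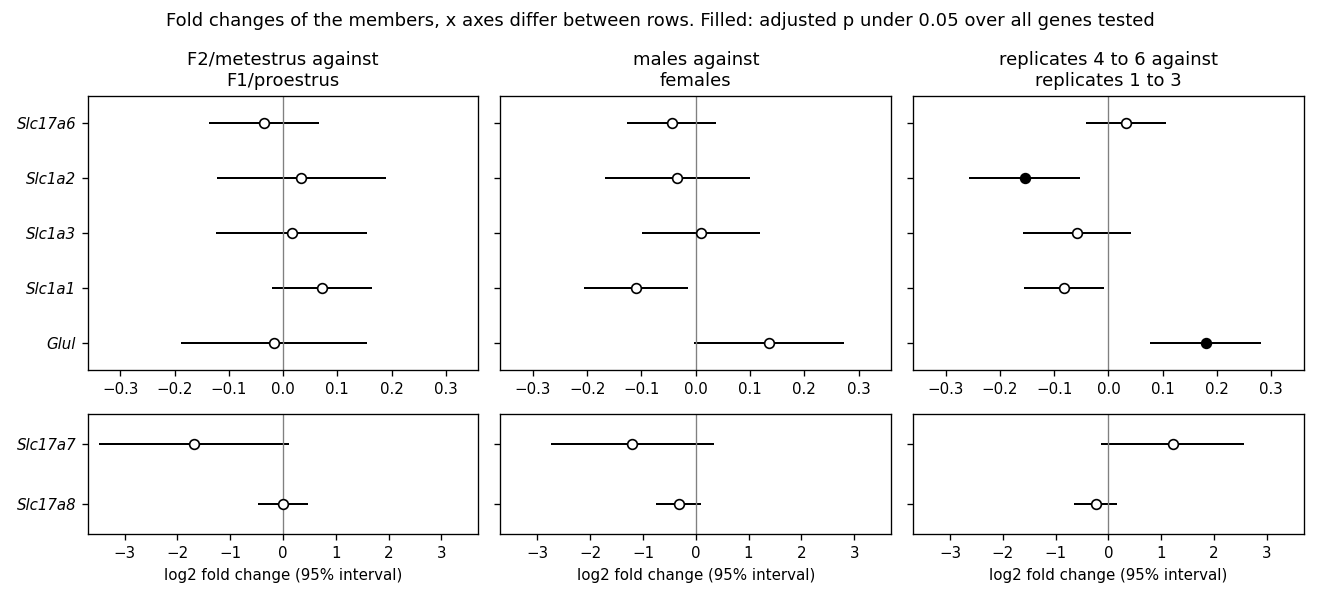
Log2 fold changes of the 7 members with 95% intervals from edgeR in the 3 comparisons; the upper and lower rows have different x axes. Filled points have an adjusted p under 0.05 over all genes tested, which holds for *Slc1a2* (-0.15) and *Glul* (0.18) between replicates 4 to 6 and 1 to 3 and for no member between the groups.

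Males were then compared with the 12 females taken as a single condition. Again 0 of 7 members passed the FDR of 5% in edgeR, where 0.197% of 24862 genes did (0.149% higher and 0.0483% lower in males), and DESeq2 and limma voom called 0 of 7 as well. *Slc1a1* was the only member with an unadjusted p under 0.05 in edgeR, which 9.72% of all genes had. It ranged from 94.1 to 115 CPM in males and from 104 to 117 CPM in females. The sexes overlapped, as they did for all but 0.125% of genes. Its level was 0.11 lower in males on the log2 scale (-0.20 to -0.017, unadjusted p = 0.0229, adjusted p = 0.429), a ratio of 0.926.

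*Glul* was 0.14 higher in males (-0.0012 to 0.27, adjusted p = 0.516), a ratio of 1.10. Within replicates 1 to 3 the difference of *Glul* between the sexes was 0.11 and within replicates 4 to 6 it was 0.15, and for *Slc1a1* the values were -0.056 and -0.18. Male 5, which had the highest *Glul* and the lowest *Slc1a1*, also had the highest sum over 5 Schwann cell markers, at 4498 CPM. This sum was high in males as a group, from 1828 to 4498 CPM with a median of 2371, against 1229 to 2582 CPM in F1/proestrus (median 1476) and 1263 to 1866 CPM in F2/metestrus (median 1623). Without male 5, *Glul* was 0.092 higher and *Slc1a1* 0.095 lower in males, while the other males had Schwann sums of 1828 to 2646 CPM. Male 5 also had the highest sums of the 18 samples over 6 excitatory dorsal horn genes (205 CPM) and over 4 meningeal fibroblast genes (281 CPM). Its sum over 4 motor neuron genes was the lowest (12.1 CPM). The part of RNA of Schwann cells or of these other cell types in the values of the sexes was not tested.

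For the remaining members the difference between the sexes was small or poorly bounded. *Slc17a6* was at -0.044 (-0.12 to 0.036), *Slc1a2* at -0.034 (-0.17 to 0.098) and *Slc1a3* at 0.0095 (-0.098 to 0.12), with adjusted p of 0.713, 0.882 and 0.962. *Slc17a8* was at -0.33 (-0.74 to 0.089, adjusted p = 0.595). *Slc17a7* was at -1.20 (-2.73 to 0.32, adjusted p = 0.592), and at -0.054 without F1/proestrus 5. Within the series, *Slc17a8* was at -0.59 in replicates 1 to 3 and -0.027 in replicates 4 to 6, and *Slc17a7* at 0.74 and -2.21. The last of these values includes F1/proestrus 5. In edgeR's test of the difference between the series no member passed the FDR, and neither did any other gene (0 of 26075). For *Slc17a7*, with F1/proestrus 5 included, this test gave an unadjusted p = 0.0171 (adjusted p = 0.970).

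The 2 library series, which each hold 3 samples of every group, were compared as well. In a fit with the group as a covariate, 2 of 7 members passed the FDR of 5%, 1 higher and 1 lower in replicates 4 to 6, against 26.9% of 25180 genes (37.6% had an unadjusted p under 0.05). The share of members called is thus near that of all genes, of which 14.2% were higher and 12.7% lower. *Glul* was the member that rose. It ranged from 189 to 238 CPM with a median of 218 in replicates 1 to 3, and from 204 to 275 with a median of 257 in replicates 4 to 6. Its log2 fold change was 0.18 (0.078 to 0.28, adjusted p = 0.00892).

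*Slc1a2* was the member that fell. It ranged from 345 to 439 CPM with a median of 413 in replicates 1 to 3, and from 331 to 391 with a median of 371 in replicates 4 to 6. Its log2 fold change was -0.15 (-0.25 to -0.054, adjusted p = 0.0216). The call was lost when F1/proestrus 3 (adjusted p = 0.0517) or F1/proestrus 6 (adjusted p = 0.0789) was left out. The series overlapped for all 7 members, whereas 4.03% of all genes did not overlap. For *Slc1a1* the log2 fold change was -0.083 (adjusted p = 0.0821), for *Slc1a3* -0.058, for *Slc17a6* 0.032, for *Slc17a8* -0.24 and for *Slc17a7* 1.21. Without F1/proestrus 5 the log2 fold change of *Slc17a7* was 0.57.

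The difference between the series varied with the exon length of the genes. Genes with at most 2 kb of exon had a median log2 fold change of 0.13 in replicates 4 to 6, and 34.3% of them were called higher. In genes with more than 10 kb the median was -0.20, and 55.9% were called lower. *Glul*, with 3.32 kb, falls among genes of 2 to 4 kb, whose median was 0.082, and *Slc1a2*, with 13.1 kb, among the longest, whose median was -0.20. Between the sexes the medians ran from 0.060 in the shortest class to -0.061 in the longest, and between the female groups they stayed between -0.0067 and 0.0063.

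A length index was computed for each sample as the median centred level of genes up to 2 kb minus that of genes over 10 kb. It ranged from -0.29 to -0.055 in replicates 1 to 3 and from 0.0050 to 0.35 in replicates 4 to 6, so the series did not overlap. With this index as a covariate 0 of 7 members and 0 of all genes tested were called between the series, but index and series move together and this fit cannot tell them apart. Between the sexes, the same covariate took *Glul* from 0.14 to 0.045 and *Slc1a1* from -0.11 to -0.083, and with the series as a further covariate they were 0.0046 and -0.043. The index was also higher in males (mean 0.087, -0.14 to 0.35) than in females (mean -0.043, -0.29 to 0.20). These fits therefore cannot fully tell sex and index apart. The index was added after seeing the data, and the part of gene length in the values of the members was not tested further.

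**Figure D4:**
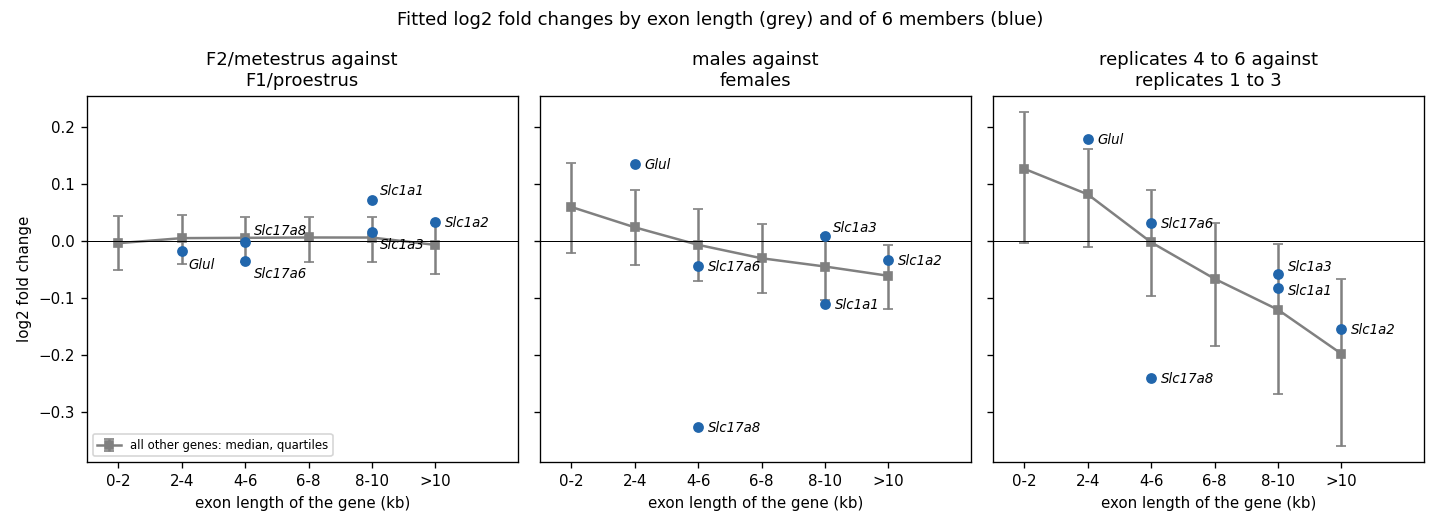
Median log2 fold change (squares, with quartiles as bars) of all other genes by exon length in kb, and the log2 fold changes of 6 members (blue points) placed in their length class, for the 3 comparisons; *Slc17a7* is off the scale and not drawn. Between replicates 4 to 6 and 1 to 3 the medians fall from 0.13 to -0.20 as exons get longer, and *Glul* and *Slc1a2* lie on the same sides as their classes.

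Members were then compared with each other over the 18 samples. Of 21 pairs, 1 had an adjusted p under 0.05 for Pearson's r in a permutation test, and 0 for Spearman's rho. It was *Slc1a1* with *Glul*, which went in opposite directions (r = -0.69, permutation p = 0.00146, adjusted p = 0.0307; rho = -0.58, permutation p = 0.0122, adjusted p = 0.0856). Without males 5 and 6, the samples farthest from the median of *Slc1a1*, r was -0.53. It was -0.63 within replicates 1 to 3 and -0.58 within replicates 4 to 6. After the length index was removed from both genes, r was -0.17.

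The next pairs were *Slc1a1* with *Slc1a2* (r = 0.55, adjusted p = 0.136; rho = 0.67, adjusted p = 0.0548, both by permutation) and *Slc17a8* with *Glul* (r = -0.55, adjusted p = 0.136; rho = -0.62, adjusted p = 0.0692, both by permutation). *Slc1a2* and *Slc1a3*, the transporters of astrocytes, had r = 0.31, and *Slc1a2* and *Glul* had r = -0.41, neither past the threshold by permutation after adjustment.

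As a description, the genes most alike to each member over the 18 samples were listed among 17761 or 17762 genes with a mean of at least 1 CPM. They share libraries and depth with the member and were picked for their likeness, so no test applies. When the group and series means were removed first, at most 1 of the 3 genes named for a member stayed among its 3 closest: *Edil3* kept r = 0.89 (rank 3) and *Rab3c* 0.92 (rank 2), whereas *Gucy1a1* had r = 0.77 (rank 106) and *Gm3086* 0.70 (rank 253). For *Slc1a1* the first was *Edil3* (r = 0.94), followed by *Gucy1a1* (0.92) and *Mpp5* (0.92). For *Slc1a2* they were *1700020I14Rik* (0.93), *Rab3c* (0.93) and *Ccdc82* (0.92). *Slc1a3* was most like *Hp1bp3* (0.79), *Kcna3* (0.76) and *Kank1* (0.76). The genes closest to the vesicular transporters were *AC122858.2* (0.78), *Ncbp1* (0.75) and *Gm3086* (0.71) for *Slc17a6*, *Gm45881* (0.83), *Nmb* (0.82) and *Gm7271* (0.82) for *Slc17a7*, and *Pitpna* (0.78), *Yy2* (0.77) and *Fam35a* (0.76) for *Slc17a8*.

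*Glul* was most like *Teddm2* (r = 0.96), *Mir8114* (0.96) and *Tomm40l* (0.95). The first 2 of these overlap the exons of *Glul*, *Teddm2* on the opposite strand over 116 bases and *Mir8114* on the same strand over 93 bases. Likewise, *4430402I18Rik*, on the opposite strand, shares 2631 bases or 31.9% of the exons of *Slc1a1*, and *Gm13872*, antisense, shares 189 bases with *Slc1a2*. Whether counting used the strand, and how it treated reads shared by genes, is not given in the sources used here. Reads from these genes and the members can therefore not be told apart at the shared bases. For *Mir8114*, on the same strand as *Glul*, strand use would not separate them.

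The rest of the cycle was described with 4 lists. They held 8 enzymes of glutamate and glutamine, 6 glutamine transporters, 10 other carriers or subunits, and 12 ion pumps, proton pumps and partner proteins. Together these were 36 further genes. Between the female groups 35 of them could be tested, *Slc1a7* being too low, and 0 passed the FDR in edgeR, DESeq2 or limma voom and 0 had an unadjusted p under 0.05. Their median log2 fold change was 0.019, against -0.00038 for all genes. The enzymes with the smallest p were *Oat*, which makes glutamate from ornithine (0.049 higher in F2/metestrus), and *Glud1*, glutamate dehydrogenase (0.043). Among glutamine transporters they were *Slc38a5* (0.12) and *Slc38a1* (0.042), among other carriers the mitochondrial aspartate/glutamate carrier *Slc25a12* (0.059) and *Slc1a4* (0.071). In the last list they were *Arl6ip5* (-0.082), a partner of the EAAC1 protein, and *Kcnj10* (0.083), the potassium channel of astrocytes. After adjustment p was 0.99998 for all 8.

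Between the sexes 0 of 36 passed the FDR in edgeR. In the same fit 9 of 36 had an unadjusted p under 0.05, a larger share than the 9.72% of all genes. The shares were not compared by a test. The median log2 fold change of the 36 was -0.018, against -0.0013 for all genes. *Slc1a5*, a glutamine transporter, had the smallest p of the 36. It ranged from 9.35 to 16.8 CPM in males (median 14.2) and from 6.85 to 12.9 CPM in females (median 9.51), and the sexes overlapped. Its log2 fold change was 0.51 (0.24 to 0.78, adjusted p = 0.151), and it was the 1 pathway gene that DESeq2 called (adjusted p = 0.0358). Over 35 alternatives its log2 fold change was 0.42 to 0.77, with adjusted p from 0.0358 to 0.787. The transaminases *Gpt2* (0.092) and *Gpt* (0.13), the glutamate transporter *Slc1a6* (0.17) and *Ajuba* (0.36), a partner of the GLT1 protein, were higher in males by values that did not pass the test. *Slc38a3* (-0.13), *Slc7a11* (-0.36), the cystine/glutamate exchanger, and *Atp6v1a* (-0.091), a subunit of the vesicular proton pump, were lower by values that did not pass it either, with adjusted p from 0.398 to 0.550 for these 7 genes.

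**Figure D5:**
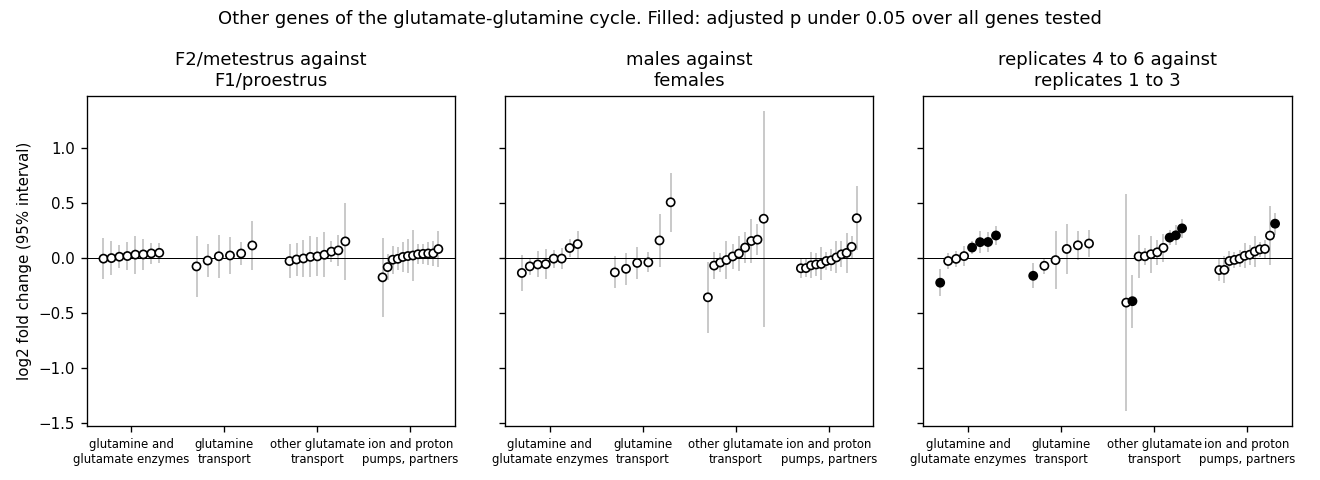
Log2 fold change (points) with 95% interval (lines) of each of the 36 other genes of the glutamate and glutamine cycle, ordered within 4 lists, in the 3 comparisons. Filled points have an adjusted p under 0.05 over all genes tested: none between the groups, and 11 (8 higher, 3 lower) between replicates 4 to 6 and 1 to 3.

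Between the library series 11 of 36 passed the FDR, 8 of 36 higher and 3 of 36 lower in replicates 4 to 6. Among all genes 14.2% were higher, a smaller share, and 12.7% lower, a larger share. The shares were not compared by a test. The median log2 fold change of the 36 was 0.034, against 0.0038 for all genes. The 8 that rose were the transaminases *Got1* (0.15), *Got2* (0.21) and *Gpt* (0.15), *Oat* (0.097), *Slc3a2* (0.27), the mitochondrial glutamate carriers *Slc25a22* (0.19) and *Slc25a18* (0.21), and *Atp6v0c* (0.31), the membrane subunit of the proton pump that energizes vesicle filling. *Atp6v0c* ranged from 93.8 to 122 CPM in replicates 1 to 3 and from 121 to 149 CPM in replicates 4 to 6. Those that fell included *Slc38a2* (-0.16), a glutamine transporter, and *Slc7a11* (-0.39). With the length index as a covariate, 0 of the 36 were called.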

How the data were processed

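Polyadenylated RNA of 18 DHSC samples was sequenced. Per the labels and the study's methods, the authors aligned reads to mm10 with Subread (2.0.3 in the submitters' processing notes) and deposited raw counts of uniquely mapped reads per gene from featureCounts. Strand use and the treatment of reads shared by genes are not given in the sources used here, and labels and methods name different library kits. The deposited fold changes and p-values of the authors' own comparisons were not used. Their table gave the gene symbols only.

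The counts were tested with edgeR 4.0.16 in R 4.3.3 (quasi-likelihood test, TMM scaling, filterByExpr with a minimum count of 10 and a minimum total of 15, Benjamini-Hochberg adjustment over all genes tested, FDR of 5%). CPM were counts per 1000000 of the TMM-scaled total, and exon lengths came from GENCODE on GRCm38. Correlations used log2(CPM + 0.1) in Python 3.11.15 with scipy 1.17.1 and 100000 permutations, two-sided. DESeq2 1.42.0, limma 3.58.1 and other settings served as alternatives, and the procedure was tested on simulated data. The named genes were the 7 members, the 2 with the smallest p of each pathway list in each comparison between groups, any called there, and the 3 most alike to each member. Pathway genes called between the library series, and the overlapping genes, were named after their values were seen. The members and lists were chosen with earlier results of these data known. Intervals and the 3-count floor cover what replicates or counting show, since PCR copies were not marked. The values of 1 pathway gene are not reported here.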

Additional observations from a re-analysis of the deposited data

Results flagged for a closer look

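In each group of 6, the gap of the highest or lowest sample to the nearest other was divided by the whole range and set against Dixon's critical value of 0.625. Of 21 groups tested, 4 passed it on the CPM scale. The nominal rate of about 1 in 20 holds for normally distributed values, so 4 of 21 cannot be read as an excess. The rule was not applied to log2 values. For *Slc17a7* these were F1/proestrus 5 (13.6 CPM against 0.144 to 1.68 in the others, gap over range 0.885), the sample with the sensory ganglion markers, and F2/metestrus 5 (1.84 CPM against 0.550 to 0.875, gap over range 0.748). For *Slc17a6* they were the low values of F1/proestrus 3 (239 CPM against 262 to 276, gap over range 0.634) and F2/metestrus 3 (238 CPM against 258 to 266, gap over range 0.713).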

How the results depend on the processing

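No member was called between the groups under any alternative, leaving out each sample included. Between F2/metestrus and F1/proestrus the sign of the log2 fold change turned for 4 members under some settings other than leaving out a sample. *Slc17a8* was 0.0014 in DESeq2, 0.076 in limma voom with sample weights, 0.00028 with size factors in place of TMM, 0.00049 with the replicate block, 0.034 within replicates 1 to 3, 0.00058 with 3 groups in 1 fit, 0.050 and 0.10 with ganglion and astrocyte scores as covariates, and 0.0022 with the length index. *Slc17a7* was 0.059 in voom, 0.97 within replicates 1 to 3 and 0.12 with the ganglion score. *Slc1a2* was -0.049 within replicates 1 to 3, and *Slc1a3* was -0.040 there, -0.0043 with the ganglion score and -0.023 with the astrocyte score.

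Between the sexes *Slc1a3* was -0.00054 with the replicate block, -0.0081 within replicates 1 to 3, -0.0096 against F2/metestrus alone, -0.0098 with the ganglion score and -0.036 with series and length index together. With the last, *Glul* was 0.0046, *Slc1a1* -0.043, *Slc17a7* 0.98, *Slc1a2* 0.030 and *Slc17a6* 0.026. *Slc17a7* was 0.74 within replicates 1 to 3, and *Slc1a2* 0.020 with the length index. DESeq2 and the ganglion score each called 1 pathway gene, *Slc1a5*, where they called 166 and 74 genes in all. Between the series, the length index gave *Slc1a1* 0.12, *Slc1a2* 0.024 and *Glul* -0.13, with 0 members, 0 pathway genes and 0 of 26075 genes called. The astrocyte score left 1 member called, beside 7136 of 26794 genes.

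Leaving out 1 sample at a time gave, between the female groups, *Slc17a6* -0.063 to -0.014, *Slc17a7* -1.995 to 0.16, *Slc17a8* -0.092 to 0.10, *Slc1a1* 0.061 to 0.091, *Slc1a2* -0.0047 to 0.077, *Slc1a3* -0.019 to 0.048 and *Glul* -0.064 to 0.024. Between the sexes *Slc1a3* ranged from -0.027 to 0.024, and between the series 1 to 3 members and 9 to 12 pathway genes were called. All-gene calls in these series fits ran from 5745 of 25408 genes (without F1/proestrus 2) to 6953 of 25516 (without F1/proestrus 3). *Slc1a1* joined the called members without F2/metestrus 4 (adjusted p = 0.0493), in voom (adjusted p = 0.0367) and with at least 10 counts in every sample (adjusted p = 0.0415).

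Same-numbered samples correlated from -0.091 to 0.54 and matched their own number best in 4 of 18 pairs. They share a library series, and the labels tie them no further, so they were not treated as pairs. With the replicate block, all-gene calls between the sexes went from 49 to 112 and those between the female groups stayed at 0. Over settings, all-gene calls between the sexes ran from 13 to 166 (DESeq2), and between the female groups they were 0 except for 2 in DESeq2. The fits with the length index were chosen after seeing the data. *Slc17a8*, at 28 to 77 counts, limits what can be seen of it.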
